A study of Mus musculus with 8 samples.

Results

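The Kruppel-like factors are a family of zinc-finger transcription factors, and 10 of the 16593 genes named on the array are described here (Klf2, Klf3, Klf4, Klf5, Klf6, Klf7, Klf9, Klf10, Klf13 and Klf15). They were chosen by name, as all probes that the array's annotation assigned to these symbols, and they were read by 13 of the 25697 probes on the array. Klf4 had 3 probes, Klf6 had 2 and each other member had 1. Total RNA of mouse intestine and colon was measured on 8 Illumina bead arrays, in which the brightness of beads with a complementary probe gives a transcript's signal. The 4 groups of 2 arrays were intestine without Nanog overexpression, intestine with it, colon without it and colon with it, and the submitters describe the arrays of a group as biological replicates. The sources used here do not give the strain or age of the mice, the means and length of Nanog expression, or whether 1 animal supplied both tissues.

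Kruppel-like factors bind GC-rich and CACCC sequences through zinc fingers at the carboxy terminus of the protein, and their amino termini recruit coactivators or corepressors. In the gut epithelium, KLF5 is known from dividing crypt cells and KLF4 from the differentiated cells of villus and surface, where it restrains division and takes part in goblet cell formation. In mouse embryonic stem cells, KLF2, KLF4 and KLF5 act beside NANOG, a homeobox factor of pluripotent cells, and Klf4 is one of the classical reprogramming factors.

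Levels are normalized log2 intensities, so a difference of 1 is a 2-fold change, and levels of different probes are not compared with each other. A probe was above background on an array where its detection p-value, its rank among the negative control beads, was under 0.01. Testing required this of both arrays in 1 group or more, and 12 of the 13 probes and 9 of the 10 members qualified. Among several probes of a gene, the brightest on average represented it. Differences were tested with limma's moderated test over 8607 genes, and called means an adjusted p (Benjamini-Hochberg) under 0.05.

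The arrays had 10652 to 11993 probes above background, and replicates correlated over all tested genes with r from 0.902 to 0.967. The single Nanog probe had detection p-values between 0.172 and 0.817 and was above background on no array, so it checks nothing about the labels. Sis and Apoa4, enterocyte genes of the small intestine, were called lower in colon without Nanog (at least 302-fold and 401-fold), and Aqp8, a water channel of colon surface cells, was called higher (adjusted p = 0.00331), at 11.72 and 12.70 in colon against 4.58 and 6.06 in intestine. All 6 epithelial markers on the array qualified for testing. Genes of pancreatic acinar cells varied widely within groups: the mean level of the 12 tested was 5.37 and 10.29 in intestine without Nanog, 5.63 and 14.25 with it, 5.47 and 7.56 in colon without Nanog and 7.83 and 13.59 with it. Replicate 2 of both Nanog groups was highest, and the Klf4 and Klf6 results below are also given without these 2 arrays. The other gene lists were not refitted without them.

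The promoters of Klf4, Klf6 and Klf15 are shown because these members had Nanog arrays wholly on one side of the controls in both tissues. Promoters were available for 8 of the 10 members, from RefSeq on build GRCm38.p6, as 250 bases before and 50 after each gene's start. Capitals mark the GC box GGGCGG, the CACCC box and the E-box CACGTG on either strand, and each sequence reads 5′ to 3′ on the gene's own strand. The intervals are chr4:55532426-55532725 on the minus strand for Klf4, chr13:5861239-5861538 on the plus strand for Klf6 and chr6:90462326-90462625 on the plus strand for Klf15.
Klf4: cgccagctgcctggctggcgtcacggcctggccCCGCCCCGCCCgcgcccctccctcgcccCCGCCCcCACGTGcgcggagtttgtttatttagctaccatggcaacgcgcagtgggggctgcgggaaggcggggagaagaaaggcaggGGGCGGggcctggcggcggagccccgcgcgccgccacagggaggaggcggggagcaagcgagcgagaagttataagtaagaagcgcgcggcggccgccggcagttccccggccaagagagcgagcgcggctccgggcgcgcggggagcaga
Klf6: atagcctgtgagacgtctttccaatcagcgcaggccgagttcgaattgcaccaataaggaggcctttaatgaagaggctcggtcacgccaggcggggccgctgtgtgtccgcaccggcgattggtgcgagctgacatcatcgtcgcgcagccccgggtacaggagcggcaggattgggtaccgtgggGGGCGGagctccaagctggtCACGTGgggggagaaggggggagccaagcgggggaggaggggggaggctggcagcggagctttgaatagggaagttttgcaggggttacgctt
Klf15: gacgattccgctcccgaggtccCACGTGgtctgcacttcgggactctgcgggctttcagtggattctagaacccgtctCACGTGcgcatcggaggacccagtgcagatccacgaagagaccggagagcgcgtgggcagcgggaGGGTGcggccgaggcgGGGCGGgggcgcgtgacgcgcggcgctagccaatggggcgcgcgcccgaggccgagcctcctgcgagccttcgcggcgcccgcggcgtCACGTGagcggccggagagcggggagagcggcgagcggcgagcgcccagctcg

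These promoters are rich in G and C (74.3% for Klf4, 63% for Klf6 and 73.3% for Klf15). The GC box, the sequence type that Sp and Kruppel-like factors bind, stood in 7 of the 8 member promoters and in 35.7% of all 32851 promoters. Klf4 held 4 of them, of which 2 overlap by their ends near the 5′ end, while Klf6 and Klf15 held 1 each. The CACCC box stood in 6 of the 8 and in 57.5% of all promoters. The E-box was found in Klf4 (1), Klf6 (1) and Klf15 (3), in none of the other 5 member promoters, and in 7.15% of all promoters. The CCAAT box stood in 4 of the 8, against 37.4% of all promoters. The letters AGAACA, a glucocorticoid receptor half-site, were in 0 of the 8 windows and in 19% of all. The motifs were chosen with the array values known, and a match is a description of letters and not of a bound site.

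Klf4 transcript was lower with Nanog in both tissues. Its level by the probe that stands for the gene, ILMN_2999439, was 10.15 and 10.52 in intestine without Nanog and 8.19 and 8.60 with Nanog. The colon controls read 11.26 and 10.75 and the colon Nanog arrays 9.61 and 9.65. Every Nanog array lay below both control arrays of its tissue. On average of the tissues Klf4 fell by 1.66 ± 0.20 log2 units (SE), a level 3.15-fold lower, by limma's test (adjusted p = 0.0225), with a 95% interval from -2.12 to -1.19. Within a single tissue this probe was not called, with a log2 difference of -1.94 ± 0.28 in intestine (adjusted p = 0.0808) and -1.37 ± 0.28 in colon (adjusted p = 0.118). In these bulk samples, fewer cells of a type and less RNA per cell cannot be told apart.

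The other Klf4 probes gave larger differences. Probe ILMN_1241903 read 9.06 and 8.89 in intestine without Nanog, 6.97 and 6.73 in intestine with Nanog, 9.97 and 9.61 in colon without Nanog and 7.64 and 7.78 in colon with Nanog. Probe ILMN_1221264 read 7.64 and 7.76, 5.73 and 5.29, 8.84 and 8.39, and 6.29 and 6.58 in the same order, and was below background on replicate 2 of intestine with Nanog. In both, the Nanog arrays again lay below the controls of their tissue without overlap. With each of the 11390 annotated probes that passed the filter tested on its own, ILMN_1241903 had differences of -2.13 ± 0.24 in intestine (adjusted p = 0.0295) and -2.08 ± 0.24 in colon (adjusted p = 0.0307). ILMN_1221264 had differences of -2.19 ± 0.27 in intestine (adjusted p = 0.0486) and -2.18 ± 0.27 in colon (adjusted p = 0.0421). On average of the tissues, their differences were -2.11 (adjusted p = 0.00477) and -2.19 (adjusted p = 0.00678), against -1.66 (adjusted p = 0.0238) for ILMN_2999439. The probes read the same RNA samples and are not replicates of the condition, and their places on the transcript are not given here.

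The call on Klf4 depended on single arrays for the probe that stands for the gene. Its adjusted p on average was 0.0540 and 0.0516 without replicates 1 and 2 of intestine with Nanog, 0.0984 and 0.0714 without those of colon without Nanog, and 0.0986 and 0.117 without those of colon with Nanog. It was 0.0210 and 0.0296 without replicates 1 and 2 of intestine without Nanog. The difference stayed between -1.78 and -1.53 throughout. Probes ILMN_1241903 and ILMN_1221264 stayed called on average in each of the 8 fits that left out 1 array, with adjusted p up to 0.0497, a comparison added after seeing the data. Leaving out replicate 2 of each Nanog group, the 2 arrays with the most pancreatic signal, the differences were -1.77, -2.08 and -2.15 for ILMN_2999439, ILMN_1241903 and ILMN_1221264. None of these differences was called. That fit leaves 1 array in each Nanog group, so a call lost there cannot be told apart from the smaller number of arrays. In single tissues, ILMN_1241903 and ILMN_1221264 each passed in 1 of the 9 fits with arrays left out in intestine and in 2 of 9 in colon. Those adjusted p values reached 0.207 in intestine and 0.308 in colon with 1 array left out.

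**Figure D1:**
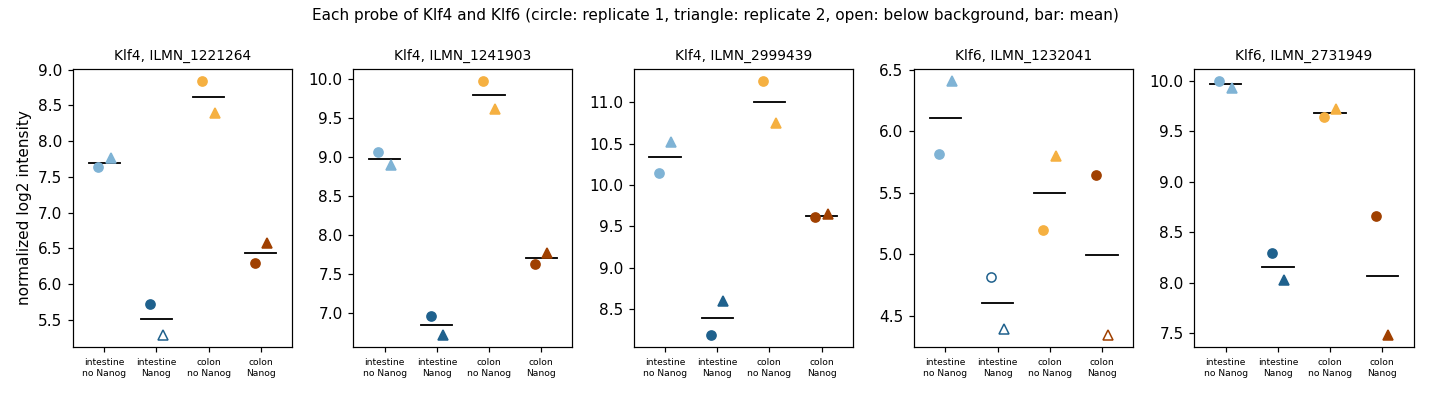
Normalized log2 intensity of the 3 Klf4 probes and the 2 Klf6 probes on each of the 8 arrays, by group. Each point is 1 array. In all 3 Klf4 probes the Nanog arrays lay below the control arrays of the same tissue, while the dim Klf6 probe ILMN_1232041 overlapped in colon.

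Klf6, a widely expressed member known as a regulator of growth arrest, was the other factor called. Its level was 9.997 and 9.93 in intestine without Nanog and 8.29 and 8.02 with Nanog, while the colon controls read 9.64 and 9.72 and the colon Nanog arrays 8.66 and 7.48. All 4 Nanog arrays lay below all 4 control arrays. On average of the tissues Klf6 fell by 1.71 ± 0.27 log2 units (SE), a level 3.27-fold lower, with an adjusted p of 0.0423 and a 95% interval from -2.33 to -1.08. Within tissues the differences were -1.81 ± 0.37 in intestine (adjusted p = 0.195) and -1.61 ± 0.37 in colon (adjusted p = 0.175), neither called.

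The second Klf6 probe, ILMN_1232041, was dim. It read 5.81 and 6.41 in intestine without Nanog, 4.81 and 4.39 in intestine with Nanog, both below background, 5.20 and 5.80 in colon without Nanog, and 5.64 and 4.34 in colon with Nanog, the latter below background. Its intestinal groups did not overlap and its colon groups did. Tested on its own its average difference was -1.01 ± 0.33 (adjusted p = 0.216). The call on Klf6 by ILMN_2731949 held without replicate 2 of intestine without Nanog (adjusted p = 0.0479) and without replicate 1 of colon with Nanog (0.0248). It was lost without replicate 1 of intestine without Nanog (0.0560), replicates 1 and 2 of intestine with Nanog (0.0769 and 0.126), replicates 1 and 2 of colon without Nanog (0.158 and 0.162) and replicate 2 of colon with Nanog (0.0977). Without the pancreatic-high Nanog array of each tissue, which leaves 1 array in each Nanog group, the average difference was -1.35 and was not called. The call was also lost with the authors' normalized values (0.0598), median scaling (0.0538), no detection filter (0.0929), the mean of both probes (0.0922) and array weights (0.0894).

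Klf4 and Klf6 were the 2 of 9 tested members called on average of the tissues, both lower, where 1.2% of all 8607 genes were called and 0.476% were called lower. In intestine 0 of 9 members were called, against 0.163% of all genes, and 3 of 9 had an unadjusted p under 0.05, against 8.69%. In colon 0 of 9 were called, against 0.221%, and 4 of 9 had an unadjusted p under 0.05, against 12.5%. The average difference lay below 0 for 8 of 9 members, with a median of -0.60 against -0.01 for all genes, and 4 of 9 had an unadjusted p under 0.05, against 16.5%. In intestine 7 of 9 lay below 0 with a median of -0.46, and in colon 8 of 9 with a median of -0.81, while the median of all genes was -0.01 in each. The arrays of the groups did not overlap for 4 of 9 members in intestine, where 32.5% of all genes did not, and for 8 of 9 in colon, where 52.9% did not. Klf4, Klf6 and Klf15 separated in the same direction in both tissues, 3 of 9 members against 14.9% of all genes. Klf15 entered the tests only through intestine with Nanog, the group where it was highest, so its place in each of these counts supports nothing.

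**Figure D2:**
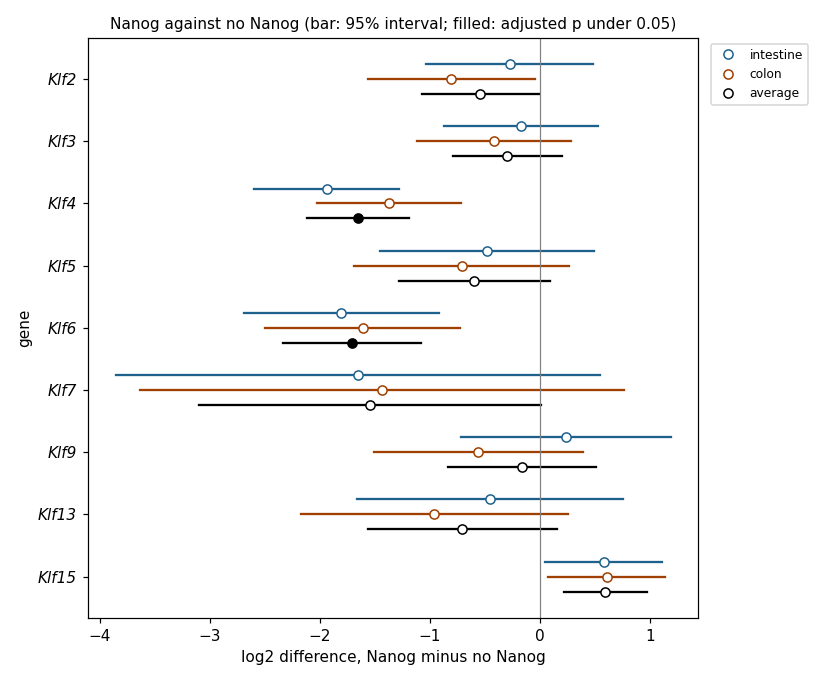
Log2 difference with minus without Nanog for the 9 tested members, in each tissue and as the mean of the tissues. Bars are 95% intervals and filled points have an adjusted p under 0.05, which on average were those of Klf4 (-1.66) and Klf6 (-1.71).

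Klf5, the crypt counterpart of Klf4, was 12.55 and 12.05 in intestine without Nanog and 12.38 and 11.25 with Nanog. The colon controls read 13.45 and 12.998 and the colon Nanog arrays 12.71 and 12.32. The groups overlapped in intestine and did not in colon. The average difference was -0.60 ± 0.29 (adjusted p = 0.362), with a 95% interval from -1.29 to 0.09. The intestinal difference was -0.48 and became 0.080 without replicate 2 of intestine with Nanog.

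Klf2, known for quiescence of endothelium and naive T cells, was 7.58 and 7.84 in intestine without Nanog and 7.85 and 7.01 with Nanog. The colon controls read 8.78 and 8.41 and the colon Nanog arrays 7.84 and 7.73, without overlap. The average difference was -0.54 ± 0.23 (adjusted p = 0.294) and that in colon -0.81 ± 0.32 (adjusted p = 0.374). In intestine it was -0.28, and 0.14 without replicate 2 of intestine with Nanog. The mean level of 5 T-cell markers was 6.63 and 5.60 in the colon controls against 4.98 and 4.90 in the colon Nanog arrays, and that of 6 endothelial markers was 7.59 and 7.30 against 6.98 and 7.21. In intestine the T-cell mean was 6.70 and 6.27 without Nanog against 6.47 and 6.75 with it. The endothelial mean there was 6.87 and 7.21 against 7.09 and 7.05. None of the 5 T-cell or 6 endothelial markers was called on average. The smallest p was that of Cd2 among the former (at least 1.18-fold lower, adjusted p = 0.179) and of Tek among the latter (-0.56, adjusted p = 0.321). Their part in the Klf2 values was not tested.

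Klf7, known from neurons and adipocyte precursors, turned on a single array. It was 8.13 and 7.91 in intestine without Nanog, and 8.07 on replicate 1 but 4.66, below background, on replicate 2 of intestine with Nanog. The colon controls read 8.69 and 8.74 and the colon Nanog arrays 7.29 and 7.27, which were the tightest pairs of any member there. The average difference was -1.55 ± 0.66 (adjusted p = 0.303). Without replicate 2 of intestine with Nanog, the intestinal difference changed from -1.66 to 0.051 and the average one to -0.69 (adjusted p = 0.181). Without replicate 1 of that group Klf7 was called in intestine (adjusted p = 0.0246) and on average (adjusted p = 0.00964). Intestine with Nanog is then 1 array, below background and assumed to vary like the other groups, so no size is given here for that difference. In colon the difference was -1.44 ± 0.93 (adjusted p = 0.577), where the SE carries the spread of the intestinal pair. A fit of the 4 colon arrays alone gave the same difference with an adjusted p of 0.0390.

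Klf3, a repressor that works through CtBP, was 10.17 and 10.41 in intestine without Nanog, 10.16 and 10.08 with Nanog, 10.72 and 10.22 in colon without Nanog and 9.73 and 10.37 with Nanog. Its average difference was -0.30 ± 0.21 (adjusted p = 0.516), with a 95% interval from -0.79 to 0.20. Klf13, known from T-cell chemokine expression, was 9.81 and 8.66, 9.12 and 8.44, 9.39 and 8.98, and 7.67 and 8.78 in the same order. The SD between the replicates of Klf13 was 0.28 to 0.82 (n = 2 in each group), and the average difference was -0.71 ± 0.36 (adjusted p = 0.383).

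Klf9 and Klf15 are induced by glucocorticoids in several tissues, Klf9 as a repressor and Klf15 as a regulator of amino acid and glucose metabolism. Klf9 was 9.89 and 10.86 in intestine without Nanog, 10.94 and 10.28 with Nanog, 11.04 and 11.17 in colon without Nanog and 10.24 and 10.84 with Nanog. Its difference was 0.23 ± 0.40 in intestine (adjusted p = 0.912) and -0.56 ± 0.40 in colon (adjusted p = 0.617). With Klf9 the sign in intestine turned to -0.26 under median scaling, which moved the median of all genes there to -0.38, and to -0.26 without replicate 1 of intestine without Nanog and -0.10 without replicate 1 of intestine with Nanog.

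Klf15 was the only member higher with Nanog in both tissues, at levels close to background. It was below background in all 4 control arrays, at 4.94 and 4.84 in intestine and 4.57 and 4.64 in colon. With Nanog it was above background at 5.36 and 5.57 in intestine, and in colon at 5.39 on replicate 2 but not at 5.02 on replicate 1. It qualified for testing only through intestine with Nanog. Since the controls have only a bound, the Nanog level in intestine was at least 1.21-fold higher, and the fitted difference was not called (adjusted p = 0.542). In colon, where 1 of the 2 Nanog arrays was above background, no fold is given, and the fitted difference was not called (adjusted p = 0.354). The bound sets each control array at its dimmest signal above background, or at the Klf15 signal where that was higher. Klf10, a TGF-beta-induced member, had detection p-values between 0.0226 and 0.274, above background on no array, and was not tested.

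**Figure D3:**
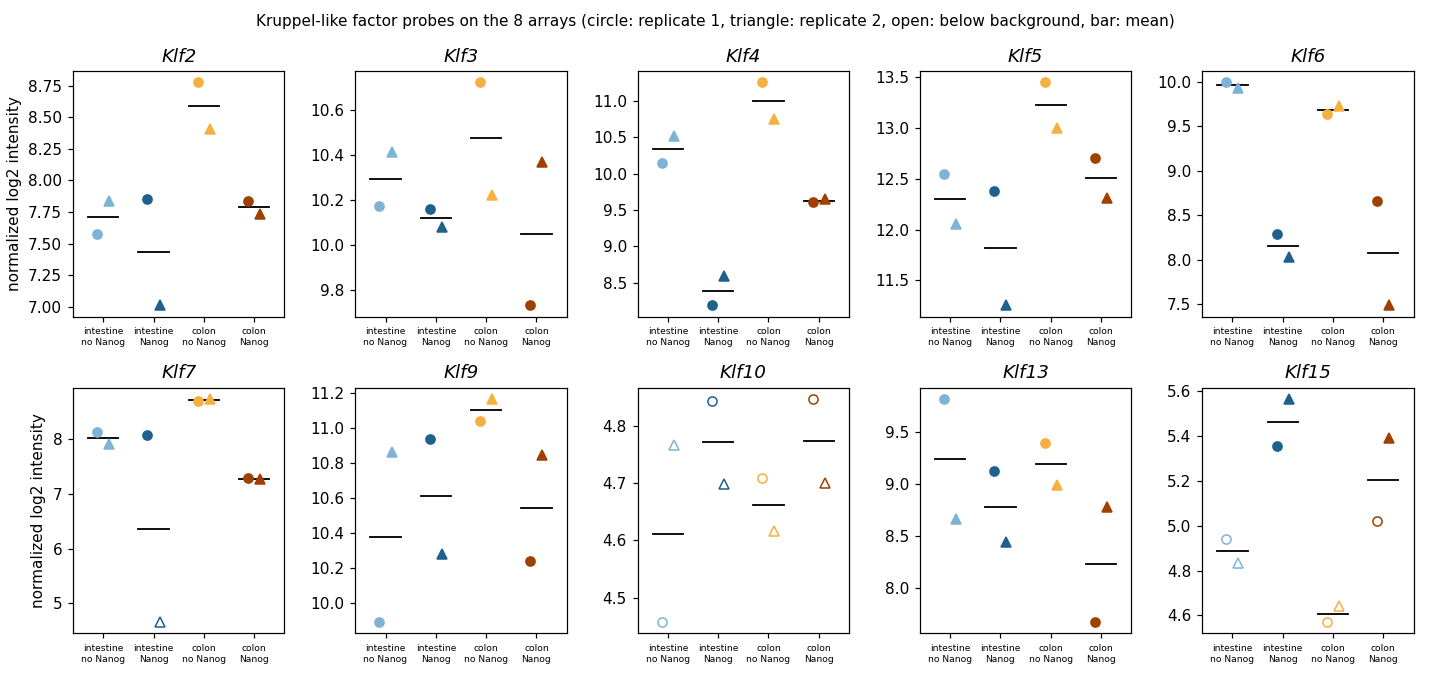
Normalized log2 intensity of the 10 members on each of the 8 arrays, by group, for the probe that stands for each gene. Each point is 1 array (circle, replicate 1, triangle, replicate 2, open, below background) and each bar a group mean, with axes that do not start at 0. The Nanog arrays of Klf4 and Klf6 lay below the controls in both tissues, Klf7 dropped to 4.66 on 1 array of intestine with Nanog, and Klf10 stayed below background throughout.

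The difference between the tissues in the Nanog effect was not called for any of the 9 members, where 0% of all genes were called, and 0 of 9 had an unadjusted p under 0.05 against 4.19% of genes. The effect on Klf4, colon minus intestine, was 0.57 ± 0.39 (adjusted p = 0.998) with a 95% interval from -0.36 to 1.49 by ILMN_2999439. The same difference was 0.05 ± 0.33 by ILMN_1241903 and 0.01 ± 0.38 by ILMN_1221264. For Klf6 it was 0.20 ± 0.53, with an interval from -1.05 to 1.45.

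Between the tissues without Nanog, 0 of 9 members were called, against 5.5% of all genes, and 2 of 9 (Klf2 and Klf4) had an unadjusted p under 0.05 against 20.8%. Klf2 was higher in colon by 0.88 ± 0.32 (adjusted p = 0.179), Klf5 by 0.93 ± 0.41 (adjusted p = 0.263) and Klf4 by 0.67 ± 0.28 (adjusted p = 0.233), none of which passed. With Nanog, 1 of 9 members was called, against 6.65% of all genes, and 1 of 9 had an unadjusted p under 0.05, against 22% of genes. This was Klf4, higher in colon by 1.23 ± 0.28 log2 units (adjusted p = 0.0466), with an interval from 0.58 to 1.89. By probes ILMN_1241903 and ILMN_1221264 the difference was 0.86 (adjusted p = 0.0856) and 0.93 (adjusted p = 0.101). The Klf4 call was lost without replicate 1 or 2 of intestine with Nanog (adjusted p = 0.151 and 0.109), of colon with Nanog (0.230 and 0.244) and without either array of colon without Nanog (0.0669). It was also lost with a replicate block (0.0546), with cyclic loess (0.0537), without the detection filter (0.0772) and with the authors' values (0.0629). The fit without the pancreatic-high Nanog arrays, with 1 array in each Nanog group, did not call Klf4 here either. Klf4 levels thus ran from colon without Nanog (11.001 ± 0.36, SD, n = 2) through intestine without Nanog (10.34 ± 0.26) and colon with Nanog (9.63 ± 0.03) to intestine with Nanog (8.40 ± 0.29). Of the steps between neighbours, that between the tissues without Nanog did not pass, that between intestine without and colon with Nanog was not tested, and that between the tissues with Nanog is the call described above.

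**Figure D4:**
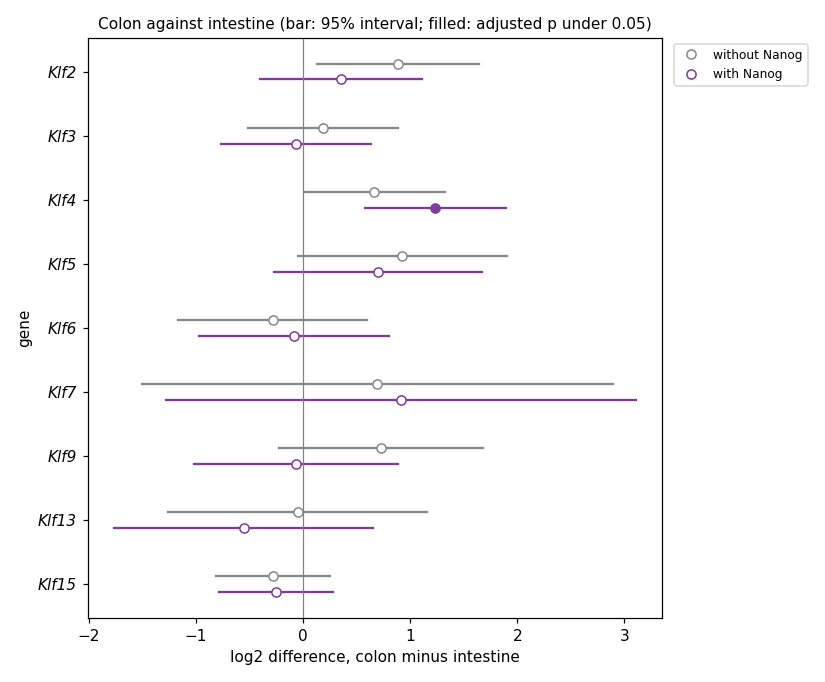
Log2 difference, colon minus intestine, for the 9 tested members, without Nanog and with Nanog. Bars are 95% intervals, and the only filled point, with an adjusted p under 0.05, is that of Klf4 with Nanog at 1.23.

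The genes whose values over the 8 arrays ran most like those of Klf4, after each gene's own mean was removed, were Sdc1 (root mean square difference 0.359), Hes1 (0.360) and Dapk2 (0.361). Sdc1 encodes a cell-surface proteoglycan of epithelium and plasma cells, Hes1 a Notch-induced repressor and Dapk2 a death-associated kinase. Their average differences with Nanog were -1.16 (adjusted p = 0.0663), -1.25 (0.0391) and -1.39 (0.0347). For Klf6 the nearest genes were Smad6 (0.290), an inhibitor of BMP signalling, Tenm4 (0.342), a teneurin, and Trpm4 (0.373), a cation channel. Their average differences were -1.68 (adjusted p = 0.0182), -1.44 (0.0233) and -1.05 (0.129). Likeness was taken over the same arrays that gave the differences, so it is a description and no further evidence.

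Genes tied to the family were counted on average of the tissues. Of 7 other Kruppel-like factors, 6 were on the array and 1 was tested, Klf16, with -0.56 ± 0.18 (adjusted p = 0.195). Of the Sp factors, the nearest relatives, 2 were tested and 0 called, and the one with the smallest p was Sp1 (0.24, adjusted p = 0.530). Among 7 tested corepressors and coactivators 0 were called, and Kat2b, a histone acetyltransferase, had the smallest p (0.29, adjusted p = 0.426). Among 6 tested ubiquitin ligases of KLF4 and KLF5 0 were called, and Fbxw7 had the smallest p (-0.64, adjusted p = 0.209).

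Genes that KLF4 and KLF5 are known to regulate in epithelium were listed without regard to whether a factor raises or lowers them. Their signs therefore say nothing about the activity of these factors. Of 9 tested, 0 were called, 4 lay above and 5 below 0, with a median of -0.06, and Odc1, the first enzyme of polyamine synthesis, had the smallest p (-0.74 ± 0.16, adjusted p = 0.0942). All 3 tested KLF2 targets lay below 0 without a call, led by the thrombomodulin gene Thbd (-0.97 ± 0.24, adjusted p = 0.126). Their median was -1.33 in colon and -0.30 in intestine. Nos3 was near background at 4.68 and 4.46 in intestine with Nanog, and Itgb7 at 4.61 and 4.56 in colon with Nanog. Such genes can enter the tests through a control group where they are higher, so the shared sign supports nothing. This list was not split by direction of regulation either. Of 4 tested KLF15 targets 0 were called, and Prodh, for proline breakdown, had the smallest p (0.75, adjusted p = 0.356). Of 7 tested TGF-beta pathway genes 0 were called, and 4 lay above and 3 below 0 with a median of 0.14. Ccn2 had the smallest p (1.35, adjusted p = 0.0953). The only tested pluripotency partner was Tbx3, with -1.22 (adjusted p = 0.0741), and the other 8 listed ones did not pass the filter. Of 9 tested immediate early genes 0 were called and 8 lay below 0, with Egr1 at -1.59 (adjusted p = 0.0784). Fosb was near background at 4.85 and 4.58 in intestine with Nanog. The limit given for the KLF2 targets holds here too, so this shared sign supports nothing.

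Genes of the glucocorticoid receptor, which induces Klf9 and Klf15 in other tissues, lay to one side. All 10 tested lay above 0 on average of the tissues, with a median of 1.43 against -0.01 for all genes. Of them 4 were called higher, where 1.2% of all genes were called in either direction. In each single tissue 9 of 10 lay above 0 and 2 were called higher, against 0.163% of all genes called in intestine and 0.221% in colon. Per1 lay below 0 in intestine (-0.04) and Nfkbia in colon (-0.15). Fkbp5, a chaperone partner of the receptor, rose by 4.66 ± 0.28 (adjusted p = 0.00148), and Ddit4, an inhibitor of mTORC1, by 2.72 ± 0.18 (adjusted p = 0.00180). Tsc22d3, an anti-inflammatory effector, rose by 1.71 ± 0.21 (adjusted p = 0.0230), and Sgk1, a kinase of sodium transport, by 1.47 ± 0.21 (adjusted p = 0.0347). Klf9 and Klf15, beside them, were not called.

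Markers of epithelium lay to the same side as Klf4 on average, though not each of them in each tissue. All 6 tested lay below 0 on average, 0 were called, and the median was -0.50, with Krt19 at -0.98 (adjusted p = 0.139). Cdh1 (-0.06) and Krt18 (-0.08) were close to 0 on average. In colon both lay above 0 (0.02 and 0.10) and the other 4 below. Their mean level was 11.13 to 11.60 in intestine without Nanog and 10.65 to 11.17 with Nanog, and 11.29 to 11.37 in colon without and 10.76 to 10.90 with Nanog. Of 6 differentiated surface markers 5 lay below 0 and 0 were called, with a median of -0.30 and Krt20 at -0.53 (adjusted p = 0.302). In each single tissue 4 of the 6 lay below 0. Sis and Apoa4 were near background in colon, at 4.25 to 4.48 and 4.22 to 4.72. Fabp2, an enterocyte marker of that list, was below background on all 8 arrays, though Sis read 12.52 to 13.93 in intestine. The Fabp2 probe is therefore no measure of enterocytes here. All 12 tested pancreatic genes lay above 0, with a median of 3.23 and 0 called, and Clps had the smallest p (2.39, adjusted p = 0.336). Ctrb1 read 4.44 and 4.83 in colon without Nanog and 6.60 and 14.14 with it. Such genes can enter the tests through a Nanog group where they are higher, so the shared sign supports nothing. Of 4 tested B and plasma cell genes all lay below 0, with a median of -1.71, and Mzb1, a chaperone of antibody-making cells, was called (-2.34, adjusted p = 0.0157). Cd79a was near background at 4.69 and 4.45 in colon with Nanog. As genes can enter the tests through a control group where they are higher, the shared sign supports nothing. Of 2 mesothelial genes 1 lay above and 1 below 0, and the latter, Upk3b, below background in both Nanog groups, was called at least 4.20-fold lower (adjusted p = 0.0276). Upk3b thus qualified for testing only through groups without Nanog, where it was higher. Of 8 smooth muscle genes 0 were called (median 0.19), with Smtn at -0.57 (adjusted p = 0.270). Of 4 macrophage genes 0 were called (median 0.42), with C1qb at 0.94 (adjusted p = 0.234). Of 4 adipocyte genes 0 were called, and 1 lay above and 3 below 0 (median -0.79), with Adipoq at -2.75 (adjusted p = 0.117). The part of epithelial content, differentiation and pancreatic RNA in the Klf4 and Klf6 values was not tested. The fits above without the pancreatic-high Nanog arrays had 1 array in each Nanog group.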

How the data were processed

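Biotin-labelled cRNA of mouse intestine and colon was hybridized to 8 bead arrays, per the labels' protocols. Per the submitters' processing notes, BeadStudio 3.2, RMA and lumi were used, in an order not stated there. In the deposited file each of 25697 probes has an intensity, its mean bead signal before any scaling, and a deposited detection p-value. A second deposited file holds the authors' normalized values in log2 units, used as an alternative. Slides and scan dates are not given here.

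Background was removed with limma 3.58.1 (R 4.3.3) by the normexp method, with an offset of 16 and the control distribution estimated from detection p-values, followed by log2 and quantile normalization. Kept were 12064 probes, those with a detection p under 0.01 on each array of some group, of which 11390 had a gene. The model gave each of the 4 groups a mean over all 8 arrays, with 4 residual and 3.07 prior degrees of freedom, and p-values of the 6 contrasts were adjusted over 8607 genes (Benjamini-Hochberg). Having only 2 arrays per group limits the precision. The scripts were tested on simulated data. Platform symbols, missing for 1719 probes, were updated to those of GRCm38.p6.

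The genes named were the members, the 3 genes nearest to each called member, and, of each of 21 lists of family, pathway and marker genes, those called and the one with the smallest p. Fabp2 is named outside this rule, as a marker below background on every array, and the tissue markers Sis, Apoa4 and Aqp8 as genes called between the tissues. Cdh1, Krt18, Nos3, Itgb7, Fosb, Ctrb1, Cd79a, Per1 and Nfkbia are named to show limits of their lists. Members, lists, motifs and tests were chosen with earlier results of these data known. Alternatives were raw intensities, an offset of 50, the authors' values, median scaling, cyclic loess, all probes unfiltered, detection on every array, averaged probes, single probes, a replicate block, a robust variance trend, array weights, fits of the compared arrays alone, each array left out, and the pancreatic-high Nanog array of each tissue left out. Single Klf4 and Klf6 probes with arrays left out were added after seeing the data.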

Additional observations from a re-analysis of the deposited data

How the results depend on the processing

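Klf4 and Klf6 kept their lower average level under all 21 alternatives, and passed the test under 14 and 9 of them, with adjusted p up to 0.265 and 0.272. The 2 members called on average became 1 (Klf4) with the authors' values, median scaling, no detection filter, the mean of a gene's probes and array weights, 0 without both pancreatic-high Nanog arrays, and 0 to 2 with single arrays left out. In intestine, 0 became 1 (Klf4) under median scaling, the mean of a gene's probes and the variance trend, and 0 to 1 with single arrays left out (Klf7). In colon, 0 became 1 with the mean of a gene's probes and array weights (Klf4) and with only the arrays compared (Klf7). Between the tissues with Nanog, 1 became 0 with the authors' values, cyclic loess, no detection filter, the replicate block and without both pancreatic-high Nanog arrays, and 0 to 1 with single arrays left out. There the count stayed at 1 under 12 of 22 alternatives and Klf4 passed under 11, so the member called was not always Klf4. The cause of these changes was not tested. Fits with arrays left out had only 1 array in some group, so a call lost there cannot be told apart from the smaller number of arrays.

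Signs turned for uncalled members. Klf9 in intestine became -0.26 under median scaling, where the median of all genes became -0.38. With single arrays left out, Klf9 ran from -0.26 (and -0.098) to 0.72 in intestine and from -0.41 to 0.078 on average, Klf13 in intestine from -1.03 to 0.12 and the Klf6 difference between the tissues from -0.39 to 0.79. In intestine, Klf2 ran from -0.70 to 0.14, Klf5 from -1.05 to 0.080 and Klf7 from -3.37, against 1 Nanog array below background, to 0.051. The highest of each, 0.14, 0.080 and 0.051, came without replicate 2 of intestine with Nanog, and again without both pancreatic-high Nanog arrays. Median scaling moved that median to 0.033 in colon and -0.17 on average, and to 0.40 between the tissues with Nanog.

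Groups share replicate numbers, and deviations of same-numbered arrays correlated with 0.468 between the intestine groups, 0.144 between the colon groups, 0.429 between the Nanog groups, 0.308 between the groups without Nanog, and 0.242 and 0.113 across tissue and Nanog. All 6 are above 0, but 2 numbers do not settle a pairing. With the replicate block, Klf4 and Klf6 stayed called on average (adjusted p = 0.0288 and 0.0354), and the Klf4 call between the tissues with Nanog was lost (0.0546). Klf15 and the second Klf6 probe lie near background, which limits their differences.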
